A study of Mus musculus with 4 samples.

Results

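The genes described here are 46 genes of the integrated stress response and of the amino acid supply it controls, taken by symbol from the 55487 annotated mouse genes of the count table. They comprise 3 eIF2alpha kinases, 6 stress transcription factors, 8 stress effectors and feedback genes, 12 enzymes of amino acid and folate metabolism, 7 amino acid transporters, and 10 genes for tRNA synthetases and the tRNA exporter. All 46 were found, and 43 passed the filter on low counts that left 13230 genes for testing. The cells were of the mouse line LPC-HRas, labelled as liver cancer cells, and were unstimulated in both groups and kept in DMEM medium with serum. Control cells gave libraries control 1 and control 2, and cells of the UBXN9-overexpressing genotype gave UBXN9 1 and UBXN9 2. UBXN9 is the product of Aspscr1. How it was raised, whether the cells are clones and whether the libraries are separate cultures are not given in the sources used here, so the spread behind each p-value is that of these libraries and may be technical.

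In the integrated stress response, kinases that sense a lack of amino acids, unfolded protein in the endoplasmic reticulum, lack of haem, mitochondrial damage or double-stranded RNA phosphorylate the translation factor eIF2alpha. Bulk protein synthesis then slows, while the mRNA of ATF4 is translated more through short reading frames in its leader, so ATF4 protein can rise without its mRNA. ATF4 dimerises with C/EBP-family proteins on composite C/EBP-ATF elements and switches on genes for amino acid synthesis, import and tRNA charging, together with stress genes such as Ddit3 and Chac1. Tumour cells use the pathway to keep up the supply of serine, asparagine, cysteine and other amino acids.

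The libraries held between 21814969 and 26292686 estimated counts. Aspscr1 itself had 92.1 and 115 CPM (counts relative to the library's total after TMM scaling) in the controls and 392 and 380 CPM in the UBXN9 libraries. Of 6 hepatocyte markers 5 stayed under 1 CPM in every library, and Alb, Serpina1a, Cyp3a11 and Tat had 0 counts throughout. Biliary and progenitor markers summed to 2717 and 2438 CPM in the controls and to 2968 and 3228 CPM in UBXN9 1 and 2, nearly all of it Spp1 and Sox9. Lymphoid markers (4 of 4 under 1 CPM, with Cd3e and Nkg7 at 0) summed to 0 CPM in each control and to 0.199 and 0.0377 CPM in UBXN9 1 and 2. Endothelial markers summed to between 1.91 and 4.38 CPM. Stellate and fibroblast markers, mainly Pdgfrb, summed to 240 and 215 CPM in the controls and to 345 and 423 CPM in UBXN9 1 and 2. Among these markers Col1a1 (4.59-fold, edgeR adjusted p = 0.00136) and the myeloid gene Lyz2 (3.53-fold, 0.0408) were higher in UBXN9-overexpressing cells. Lyz2 lay between 0.635 and 3.14 CPM. The other stellate and fibroblast markers Pdgfrb (1.3-fold), Pdgfra (1.27-fold), Des (0.72-fold) and Col1a2 (0.592-fold) were not called. The biliary and progenitor markers Cd24a (0.482-fold, 0.0102) and Krt19 (0.31-fold, 0.0294) were lower. Spp1 (1.22-fold) and Sox9 (1.17-fold) of the same list were not called. Myeloid markers, of which 1 of 4 was under 1 CPM throughout, summed to 6.64 and 6.81 CPM in the controls and 11.8 and 9.92 CPM in the UBXN9 libraries, and the part of these marker lists in the results was not tested. Fewer cells of a type and less RNA per cell cannot be told apart in bulk RNA. The median absolute log2 difference over all genes was 0.199 between the controls and 0.313 between the UBXN9 libraries.

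UBXN9-overexpressing cells were compared with control cells to find which of these genes changed. Among the 43 tested members 8 rose and 0 fell (edgeR quasi-likelihood test, adjusted p under 0.05). Of all 13230 genes tested, 5.06% rose and 2.38% fell by the same rule. The 8 were the transcription factor genes Ddit3 and Cebpb, the stress effectors Chac1 and Sesn2, the cysteine-producing enzyme Cth, the large neutral amino acid transporter Slc7a5, and the tRNA synthetases Aars and Wars. Changes were modest in 7 of them, with rises of 1.65-fold to 2.4-fold, and large in Cth, which rose 8.96-fold. Over the tested members the log2 fold changes had a median of 0.36, against -0.01 over all genes tested, and 35 of the 43 had a positive value, against 6543 of 13230. Both UBXN9 libraries lay above both controls in 29 members and below both in 3, while over all genes these arrangements took 25.0% and 25.6%. Statements below that the groups of a gene did not overlap are read against these shares. With 2 libraries a group the smallest two-sided p of an exact permutation test is 0.333, so single genes were tested in the model across all genes.

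**Figure D1:**
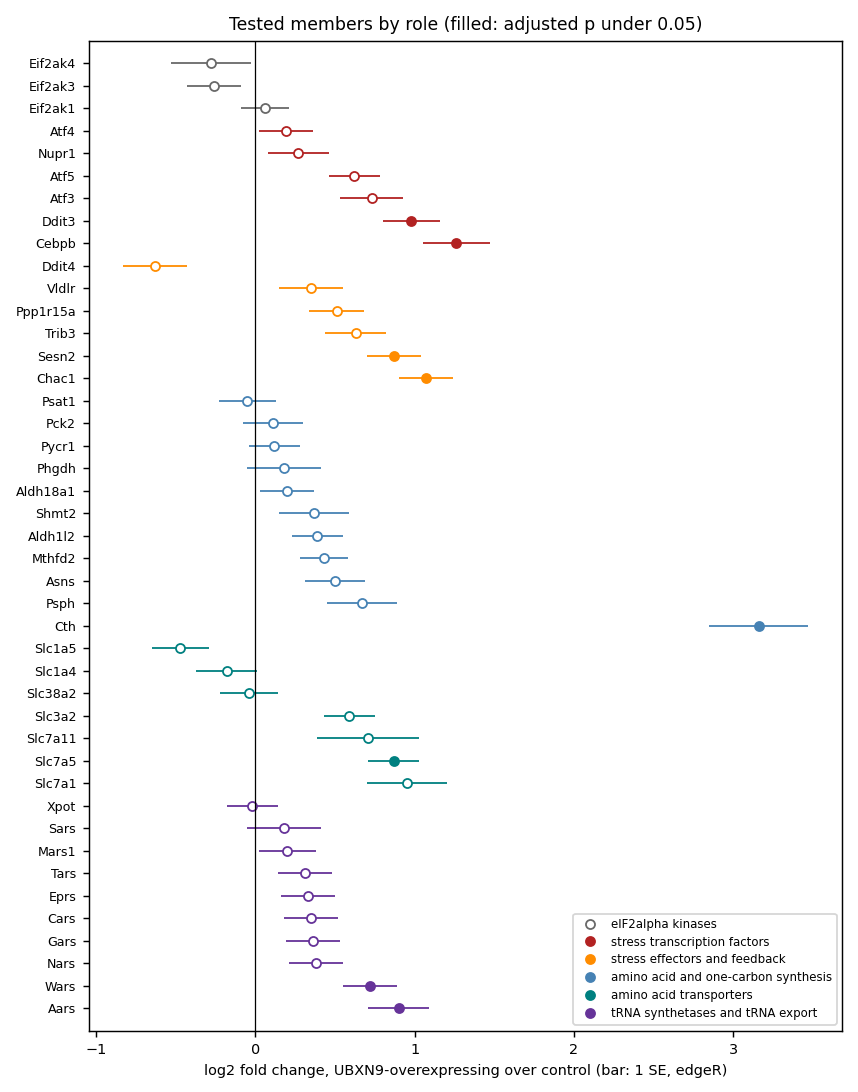
Log2 fold change of UBXN9-overexpressing over control cells (x axis) for the 43 tested members (y axis), coloured by role, with bars of 1 standard error from edgeR and filled points for an adjusted p under 0.05. Values ran from -0.63 for Ddit4 to 3.16 for Cth, and 8 points are filled, all to the right of 0.

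ATF4 binds composite elements of the form TGATGNAA, where N is any base, and the promoters of the members were read for this motif on both strands. RefSeq promoter windows on GRCm38.p6, from 250 bases before to 50 bases after each annotated start, were found for 39 members. Aldh1l2, Cth, Slc7a5, Slc1a5, Wars, Nars and Cars had no entry. The motif was present in 13 of the 39 (33.3%), against 1219 of 27025 genes in the whole table (4.51%). The members were listed as ATF4, its upstream kinases and its targets, so this comparison describes how the list was made and tests nothing. A match is a description of the letters and not a binding site, and no other motif was searched. It was present in 3 of 8 stress effectors, 3 of 10 enzymes, 2 of 5 transporters, 3 of 7 synthetase and tRNA export genes, 2 of 6 transcription factors and 0 of 3 kinases. The following stretches, 5′ to 3′ on the strand of the gene with the motif or its reverse complement in capitals, are shown because they are in genes that rose or in textbook targets of ATF4.
Chac1 (chr2:119351023-119351082, plus strand): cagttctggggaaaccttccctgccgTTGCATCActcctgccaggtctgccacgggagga
Aars (chr8:111033704-111033763, plus strand): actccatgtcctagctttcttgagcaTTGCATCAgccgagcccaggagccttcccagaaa
Atf3 (chr1:191183410-191183469, minus strand): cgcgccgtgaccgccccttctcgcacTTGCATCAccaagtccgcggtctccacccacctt
Nupr1 (chr7:126625547-126625606, minus strand): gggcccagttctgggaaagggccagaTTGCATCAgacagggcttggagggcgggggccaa
Vldlr (chr19:27216794-27216853, plus strand): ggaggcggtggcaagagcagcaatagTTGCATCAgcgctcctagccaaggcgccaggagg
Asns (chr6:7693210-7693258, minus strand): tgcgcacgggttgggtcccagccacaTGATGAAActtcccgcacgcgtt
Slc7a11 (chr3:50443627-50443705, minus strand): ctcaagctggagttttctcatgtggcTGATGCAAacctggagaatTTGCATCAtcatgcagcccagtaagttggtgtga

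In Chac1 the match began 193 bases before the start, and in Aars 112 bases before it. Both Atf3 and Nupr1 had it at 110 bases, in the same reverse orientation. Slc7a11 held 2 matches, at 66 and 47 bases before the start, in opposite orientations. Aars held a further match after its start. The match of Trib3 also fell after its start and that of Slc1a4 ran across its start, so neither is shown. Pycr1, Pck2, Gars and Tars held matches before the start. They are not shown either, as they did not rise and were not among the textbook targets chosen. Presence of the letters did not separate the members that rose: 2 of 5 with an entry had the motif, as did 11 of 31 tested members that were not called. The median log2 fold change was 0.36 over 13 tested members with the motif (from -0.18 to 1.07) and 0.20 over 23 without it (from -0.63 to 1.26).

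The kinases at the head of the pathway showed no change that passed the test. Eif2ak3, which encodes the endoplasmic reticulum sensor PERK, had 37.5 and 34.5 CPM in controls 1 and 2 and 29.0 and 31.2 CPM in UBXN9 1 and 2. Both UBXN9 libraries were thus below both controls, with a log2 fold change of -0.26 (SE 0.17, edgeR adjusted p = 0.435). Eif2ak4, which encodes GCN2, the sensor of uncharged tRNA, had 34.3 and 28.5 CPM in the controls and 19.9 and 31.7 CPM in the UBXN9 libraries, and the groups overlapped. Eif2ak1, which encodes the haem-regulated kinase HRI, lay between 65.9 and 74.8 CPM in the 4 libraries, with overlap. PKR, the kinase of the family that senses double-stranded RNA and is encoded by the interferon-stimulated gene Eif2ak2, stood at 38.6, 23.9, 49.1 and 88.8 CPM in control 1, control 2, UBXN9 1 and UBXN9 2. Its log2 fold change of 1.14 (SE 0.33) did not pass (edgeR adjusted p = 0.0972). Nor did it in edgeR with RLE (0.088) or upper-quartile factors (0.12), library size alone (0.198), a 5 CPM filter (0.115) or a robust prior (0.101). It also failed in limma-voom (adjusted p = 0.107). It passed in DESeq2 (adjusted p = 0.00365), and in edgeR without a filter (4.08e-06), with a replicate block (0.00564) and with an exon-length offset (0.049). A crossed block, added after the data were seen, let it pass too (edgeR, 8.76e-06). The rise was 2.87-fold without control 1, 1.79-fold without control 2, 2.84-fold without UBXN9 1 and 1.57-fold without UBXN9 2.

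Atf4, the central transcription factor, was among the most abundant members. It had 463 and 497 CPM in the controls and 538 and 559 CPM in the UBXN9 libraries. The UBXN9 libraries were above the controls, but the difference was small, with a log2 fold change of 0.19 (SE 0.17, adjusted p = 0.573). RNA counts do not measure its translation or protein. Among its partners and targets in this group, Cebpb and Ddit3 rose. Cebpb, a C/EBP factor that pairs with ATF4 (ENSMUSG00000056501, chromosome 2, 167688915 to 167690418, GRCm38), had 96.8 and 134 CPM in the controls and 308 and 248 CPM in the UBXN9 libraries. It rose 2.4-fold with no overlap between the groups (log2 fold change 1.26, SE 0.21, adjusted p = 0.0157). Ddit3, which encodes the C/EBP-homologous factor CHOP (ENSMUSG00000025408, chromosome 10, 127290774 to 127296288), had 40.2 and 43.4 CPM in the controls and 91.8 and 72.5 CPM in the UBXN9 libraries (log2 fold change 0.98, SE 0.18, adjusted p = 0.0212). A second identifier with the symbol Ddit3 covers 105 exonic bases of the locus and had at most 33 counts in a library.

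The other factors of this group lay in the same direction without passing the test. Atf3, a bZIP factor induced by many stresses, had 41.1 and 50.7 CPM in the controls and 85.7 and 66.9 CPM in the UBXN9 libraries (log2 fold change 0.73, SE 0.20, adjusted p = 0.0747). For Atf5, a relative of ATF4 that is translated by the same mechanism, the values were 40.1 and 43.5 against 66.7 and 62.2 CPM (log2 fold change 0.62, SE 0.16, adjusted p = 0.0636). In both genes the groups did not overlap. Nupr1, a small stress-induced chromatin protein, had 19.5 and 19.2 CPM in the controls against 21.3 and 25.3 CPM (adjusted p = 0.488). All 6 factors were tested, 2 rose, and all 6 had positive log2 fold changes (median 0.68). Of all genes tested 5.06% rose, and 6543 of 13230 had a positive value. Cebpa, the liver-enriched C/EBP factor and no member of the list, rose 2.89-fold from 5.83 ± 0.741 to 16.8 ± 0.383 CPM (SD, n = 2 libraries, edgeR adjusted p = 0.00892).

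Stress effectors split by gene. Chac1, which degrades glutathione (ENSMUSG00000027313, chromosome 2, 119351229 to 119354381), had 22.8 and 23.8 CPM in the controls and 52.6 and 45.3 CPM in the UBXN9 libraries. It rose 2.1-fold (log2 fold change 1.07, SE 0.17, adjusted p = 0.0123). Sesn2, a leucine sensor that restrains mTORC1 (ENSMUSG00000028893, chromosome 4, 132492032 to 132510501), had 34.1 and 37.0 CPM in the controls and 60.1 and 69.5 CPM in the UBXN9 libraries (log2 fold change 0.87, SE 0.17, adjusted p = 0.0251). The groups did not overlap in either gene. Trib3, a pseudokinase that feeds back on ATF4, had 67.5 and 84.1 against 129 and 106 CPM (log2 fold change 0.63, adjusted p = 0.0976). Ppp1r15a, the eIF2alpha phosphatase subunit GADD34 that ends the response, had 84.4 and 101 against 142 and 122 CPM (log2 fold change 0.51, adjusted p = 0.141). Ddit4, which encodes the mTORC1 inhibitor REDD1, went the other way, from 177 and 190 CPM in the controls to 139 and 99.1 CPM, with both UBXN9 libraries below the controls. Its log2 fold change of -0.63 (SE 0.20) did not pass (edgeR adjusted p = 0.122). The value was -0.89 without UBXN9 1, -0.40 without UBXN9 2, -0.68 without control 1 and -0.58 without control 2. Vldlr, a lipoprotein receptor gene, had 20.7 and 18.1 against 22.1 and 27.3 CPM and did not pass (adjusted p = 0.382).

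The secreted effectors Stc2 and Gdf15 were practically silent. Stc2, a glycoprotein hormone gene, was counted once, in control 1, and a count of 0 allows up to 3 counts, which is 0.149 CPM in the shallowest library. Gdf15, the stress cytokine often used as a readout of this pathway, had 5, 2, 2 and 0 counts in control 1, control 2, UBXN9 1 and UBXN9 2. Neither was deep enough to test, so a difference was not detectable at this depth. These limits cover counting error only.

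**Figure D2:**
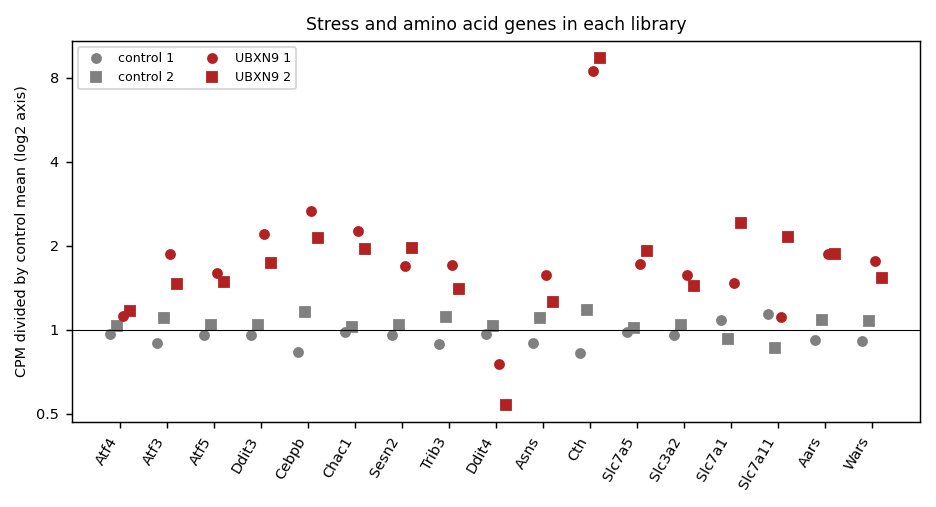
CPM of 17 stress and amino acid genes in each library divided by the mean of the 2 controls, on a log2 axis; grey symbols are controls, red symbols UBXN9-overexpressing libraries, circles replicate 1 and squares replicate 2. Both red symbols lie above both grey ones except for Ddit4, where both lie below, and Slc7a11, where UBXN9 1 lies between the controls.

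Of the enzymes of amino acid and folate metabolism, 1 of 11 tested rose, none fell, and the median of their log2 fold changes was 0.37. Over all genes tested 5.06% rose and 2.38% fell, so a single call does not set the group apart. The member that rose was Cth, cystathionine gamma-lyase, which makes cysteine from cystathionine (ENSMUSG00000028179, chromosome 3, 157894248 to 157925077). Its counts were 25 and 30 in controls 1 and 2 against 196 and 290 in UBXN9 1 and 2, or 0.954 and 1.36 against 9.76 and 10.9 CPM. The log2 fold change was 3.16 (SE 0.31, adjusted p = 0.00156), from 1.16 ± 0.288 to 10.3 ± 0.833 CPM (SD, n = 2). In the controls Cth was the least abundant of the tested members per exon length, at 0.415 ± 0.103 CPM per kb (SD, n = 2). In the UBXN9 libraries its mean was 3.71 ± 0.298 CPM per kb, above that of Vldlr at 2.45 ± 0.365 CPM per kb. Cbs, the enzyme just before Cth in the same route, had between 5 and 11 counts in every library and was not tested.

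No enzyme of the serine route passed the test. Phgdh, its entry enzyme, was the most abundant member per exon length in the controls at 405 ± 86.9 CPM per kb, ahead of Atf4 at 204 ± 9.97 CPM per kb. Its values of 853, 1158, 1266 and 1014 CPM in control 1, control 2, UBXN9 1 and UBXN9 2 overlapped between the groups (adjusted p = 0.725). Psat1, the next enzyme, lay between 320 and 384 CPM with overlap (log2 fold change -0.05, SE 0.18). Psph, which completes serine, had 59.6 and 73.0 against 124 and 87.1 CPM (log2 fold change 0.67, SE 0.22, adjusted p = 0.127). The groups of Psph did not overlap, and UBXN9 1 was the high library. Shmt2, which moves the carbon unit of serine into mitochondrial folate, had 403 and 532 against 679 and 532 CPM (adjusted p = 0.389). Mthfd2 and Aldh1l2, further mitochondrial folate enzymes, had log2 fold changes of 0.43 (SE 0.15, adjusted p = 0.155) and 0.39 (SE 0.16, adjusted p = 0.216), and neither overlapped between groups.

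Asns, asparagine synthetase and a classic ATF4 target, had 192 and 237 CPM in the controls and 337 and 270 CPM in the UBXN9 libraries. The UBXN9 libraries were the higher ones, but the log2 fold change of 0.50 (SE 0.19) did not pass (adjusted p = 0.189). The proline enzymes Aldh18a1 and Pycr1 and the mitochondrial PEP carboxykinase Pck2 had log2 fold changes of 0.20, 0.12 and 0.11, each with an SE between 0.16 and 0.19, and Pck2 overlapped between groups.

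Of the 7 transporters 1 rose and none fell (median of the log2 fold changes 0.59). Beside the 5.06% of all genes that rose and 2.38% that fell, a single call does not set this group apart either. Slc7a5, which encodes LAT1, the importer of leucine and other large neutral amino acids (ENSMUSG00000040010, chromosome 8, 121881150 to 121907694), had 189 and 196 CPM in the controls and 332 and 371 CPM in the UBXN9 libraries. It rose with no overlap (log2 fold change 0.87, SE 0.16, adjusted p = 0.0213). Slc3a2, the heavy chain 4F2hc that carries LAT1 and xCT to the membrane, had 240 and 262 against 394 and 361 CPM (log2 fold change 0.59, SE 0.16, adjusted p = 0.0824). Slc7a1, the arginine and lysine carrier CAT1, had 160 and 137 against 218 and 356 CPM (log2 fold change 0.95, SE 0.25, adjusted p = 0.07), with UBXN9 2 far above UBXN9 1. Slc7a11, the cystine importer xCT, had 45.1 and 33.9 against 44.0 and 84.9 CPM. There the groups overlapped and the difference rested on UBXN9 2: the rise was 2.15-fold without UBXN9 1 and 1.11-fold without UBXN9 2 (adjusted p = 2.94e-07 and 0.632).

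Slc1a5, the glutamine carrier ASCT2, was lower in both UBXN9 libraries, with 112 and 105 against 67.5 and 89.5 CPM. Its log2 fold change was -0.47 (SE 0.18, adjusted p = 0.199). The values of Slc1a4, the related carrier ASCT1, were 52.4 and 50.1 against 39.0 and 51.7 CPM, with overlap. Slc38a2, the sodium-coupled carrier SNAT2 that amino acid shortage induces, lay between 171 and 213 CPM with overlap (log2 fold change -0.04, SE 0.18).

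Transfer RNA synthetases load amino acids onto tRNA, and several are ATF4 targets. In this group 2 of 10 genes rose, none fell and 9 had positive values (median log2 fold change 0.34). Across all genes tested 5.06% rose, 2.38% fell and 6543 of 13230 had positive values. Aars, the alanine enzyme (ENSMUSG00000031960, chromosome 8, 111033144 to 111057664), had 563 and 667 CPM in the controls and 1149 and 1148 CPM in the UBXN9 libraries (log2 fold change 0.90, SE 0.19, adjusted p = 0.0333). Exons of Exosc6, a gene for an RNA exosome subunit, overlap Aars on the same strand, and reads there cannot be assigned with certainty. Exosc6 was listed at 90 and 214 counts in controls 1 and 2 and at 0 counts in both UBXN9 libraries, against 14768, 14707, 23085 and 30438 counts for Aars in the same order. Wars, the tryptophan enzyme, which interferon also induces (ENSMUSG00000021266, chromosome 12, 108860030 to 108894174), had 106 and 125 CPM in the controls and 205 and 178 CPM in the UBXN9 libraries. It passed narrowly (log2 fold change 0.72, SE 0.17, adjusted p = 0.0491), and with upper-quartile scaling it did not (adjusted p = 0.0573).

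The other synthetases had small positive values that did not pass. Gars, Nars, Cars, Eprs and Tars had log2 fold changes between 0.31 and 0.38 with SEs of 0.17, and in none of them did the groups overlap. Sars had 720 and 898 CPM in the controls against 1058 and 776 CPM, with overlap and an adjusted p of 0.721. Mars1, listed as Mars in the annotation, had a log2 fold change of 0.20 (SE 0.18) and also overlapped. Mars1 and Ddit3 are neighbours whose exons overlap on opposite strands, and the kit does not mark strand, so reads from the shared stretch cannot be told apart. The same holds for parts of Cebpb, Atf5, Ppp1r15a, Psph and Shmt2, whose exons overlap other genes on the opposite strand. It also holds for parts of Eif2ak1, Eif2ak3, Aldh1l2, Pck2, Cars and Aars. Xpot, the nuclear exporter of tRNA, was at 123, 112, 109 and 123 CPM in control 1, control 2, UBXN9 1 and UBXN9 2, a log2 fold change of -0.02 (SE 0.16).

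Beyond the members, 6 further gene lists show the rest of the pathway. Their counts are read against the 5.06% of all genes that rose and the 2.38% that fell, and a count of 1 in 19 is near that background. The list of eIF2 and its regulators also holds the C/EBP factor genes Cebpa and Cebpg. Of its 19 tested genes 1 rose, Cebpa, and 0 fell, so no gene for eIF2 or a regulator of it was called. Log2 fold changes were positive in 12 of the 19 and negative in 7. Later counts of eIF2 regulators are for this whole list. The other arms of the unfolded protein response had 0 of 19 called in either direction, with a median log2 fold change of 0.26. As in the members, most values were positive (17, against 2 negative). Both UBXN9 libraries lay above both controls in 11 of these 19 genes and below both in 1. Herpud1, an endoplasmic reticulum degradation gene, had 71.1 and 90.4 against 146 and 124 CPM (adjusted p = 0.0597), and Ern1, the sensor IRE1alpha, had 111 and 96.0 against 149 and 207 CPM (adjusted p = 0.069). Among 14 other cytosolic synthetases and their cofactors 0 were called, with a median of 0.21, 11 positive values and 3 negative ones. The 2 with the smallest p were Yars (log2 fold change 0.68, adjusted p = 0.0777) and Kars (0.46, adjusted p = 0.271). The 17 mitochondrial synthetases also had 0 called, with a median of 0.01, 9 positive values and 8 negative ones. Lars2 had the smallest p among them (log2 fold change 0.93, adjusted p = 0.0816).

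Other amino acid and folate enzymes had 1 of 19 tested genes higher and 0 lower. The gene that rose was Gpt2, mitochondrial alanine transaminase, at 107 and 115 against 180 and 176 CPM (1.6-fold, adjusted p = 0.0409). Other amino acid transporters had 2 of 14 tested genes higher and 0 lower. Slc6a9, the glycine transporter GLYT1, had 83.2 and 87.0 CPM in the controls and 193 and 201 CPM in the UBXN9 libraries (2.32-fold, adjusted p = 0.00455). Slc25a22, a mitochondrial glutamate carrier, had 26.7 and 24.0 against 65.1 and 85.3 CPM (2.97-fold, adjusted p = 0.00456). The adjusted p of both transporters stayed under the threshold with each library left out in turn, at most 0.0275 for Slc6a9 and 0.00986 for Slc25a22, while that of Gpt2 was 0.469 without control 1 and 0.332 without control 2.

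The rises were set beside the position of each gene in the genome. The median log2 fold change of all tested genes was 0.27 on chromosome 4 (806 genes) and 0.31 on chromosome 8 (732 genes), against -0.04 over the 11692 genes elsewhere. By the edgeR test 7.69% of genes rose on chromosome 4 and 8.88% on chromosome 8, against 4.64% elsewhere. Sesn2 lies on chromosome 4, and Slc7a5 and Aars on chromosome 8, so all 3 tested members there rose. Less the median of their chromosome, their log2 fold changes were 0.60, 0.56 and 0.59. Of the genes outside the member list, Slc6a9 and Yars are on chromosome 4 and Gpt2, Kars and Herpud1 on chromosome 8. Away from both chromosomes 5 of 40 tested members rose (Ddit3, Cebpb, Chac1, Cth and Wars), 0 fell and the median was 0.35. Chromosome 5, which carries Slc7a1, Psph and Eif2ak1, had a median of 0.11. The part of chromosome position in these rises was not tested.

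**Figure D3:**
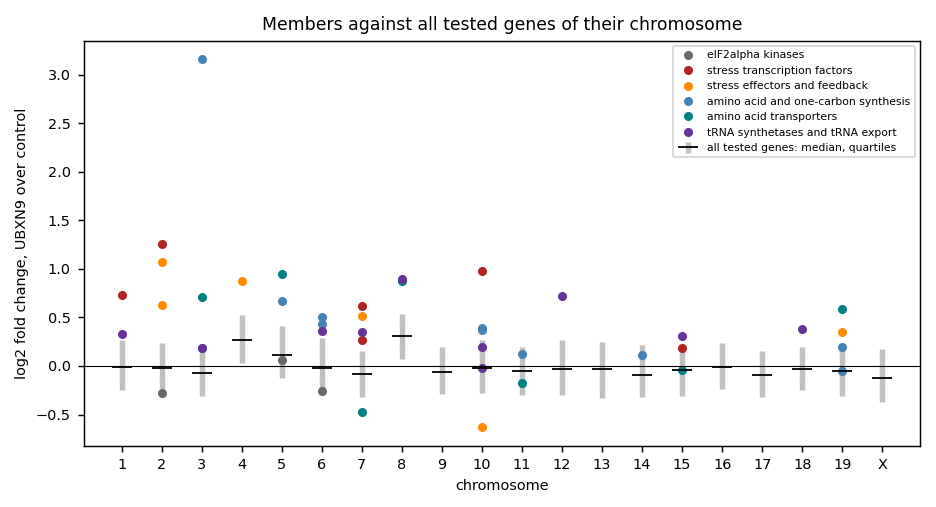
Log2 fold change of UBXN9-overexpressing over control cells (y axis) by chromosome (x axis), with the median of all tested genes as a black dash, their quartiles as a grey bar, and the 43 tested members as points coloured by role. The grey bars of chromosomes 4 and 8 sit higher than the others, with medians of 0.27 and 0.31, and Sesn2, Slc7a5 and Aars lie above them.

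The libraries of a group also differed in these genes in a common pattern. Control 2 was above control 1 in 30 of 43 tested members (69.8%), against 48.5% of all genes, and UBXN9 1 was above UBXN9 2 in 26 (60.5%), against 52.1%. Both held in 24 members (55.8%), against 36.0% of all genes, and in 8 of the 10 synthetase and tRNA export genes. Transporters did the reverse, with UBXN9 2 the higher UBXN9 library in 6 of 7. Over all genes the difference between the libraries of a group moved with exon length: the Spearman correlation was -0.325 for control 2 minus control 1 and 0.423 for UBXN9 2 minus UBXN9 1, across 13219 genes that are not independent replicates. The correlation of the difference between the groups with length was -0.011.

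Calls also depended on which libraries entered the fit. Without control 1 only Cth was called among the members (3.71% of all genes rose), and without control 2 only Cth and Cebpb (2.69%). Without UBXN9 1 there were 12 higher and 1 lower (11.6% of all genes rose and 6.84% fell), and without UBXN9 2 there were 17 higher and 2 lower (10.9% rose and 9.78% fell). All 8 called members stayed called in these last fits. The rise of Cth was 7.54-fold to 10.8-fold over the 4 fits, with an adjusted p of at most 0.000163. The adjusted p of Cebpb was 0.065 without control 1 and 0.0072 without control 2. In the same 2 fits the adjusted p was 0.121 and 0.103 for Ddit3, 0.0689 and 0.0835 for Chac1, and 0.233 and 0.177 for Sesn2. For Slc7a5 it was 0.231 and 0.203, for Aars 0.399 and 0.166, and for Wars 0.502 and 0.22. Across these 7 genes the fold changes in the same 2 fits lay between 1.52-fold for Wars and 2.87-fold for Cebpb. Without control 1 and without control 2, Cebpb rose 2.06-fold and 2.87-fold, and Wars 1.52-fold and 1.8-fold.

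Several members missed the threshold with all 4 libraries and passed when a UBXN9 library was left out. Atf3 passed without UBXN9 1 (adjusted p = 0.0319) and without UBXN9 2 (2.45e-05), and so did Atf5 (0.0222 and 0.0036) and Slc7a1 (2.72e-08 and 0.0217). Without UBXN9 1, Slc7a11 was higher, at 2.15-fold, and Ddit4 lower. Without UBXN9 2, Trib3, Ppp1r15a, Asns, Psph, Aldh1l2 and Slc3a2 were higher, with adjusted p values from 1.42e-05 for Psph to 0.039 for Aldh1l2. Eif2ak4 (adjusted p = 0.0173) and Slc1a5 (0.00379) were lower there. Eif2ak4 had a log2 fold change of -0.66 without UBXN9 2 and 0.01 without UBXN9 1.

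**Figure D4:**
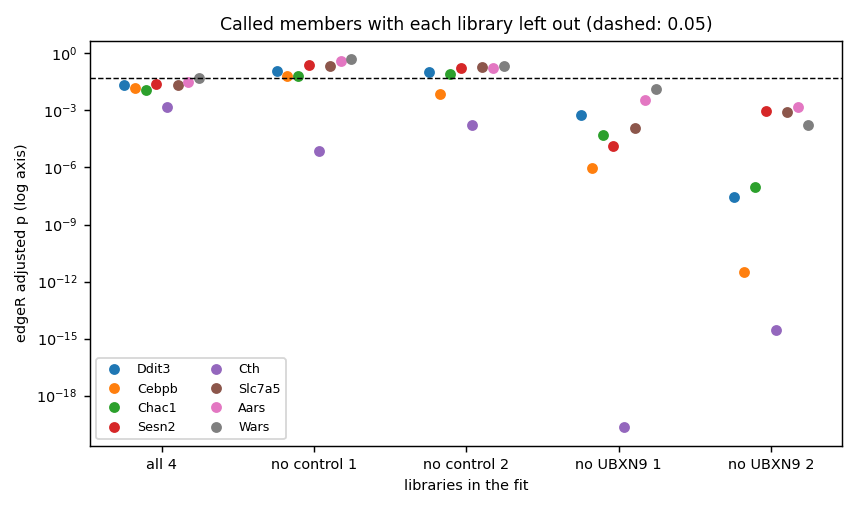
Adjusted p from edgeR (y axis, log scale) of the 8 called members with all 4 libraries and with each library left out (x axis); the dashed line is 0.05. Without control 1 only Cth lies below the line, without control 2 Cth and Cebpb do, and without either UBXN9 library all 8 do.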

How the data were processed

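RNA of 2 control and 2 UBXN9-overexpressing samples was sequenced from TruSeq RNA v2 libraries, per the labels' protocols. The deposited table holds estimated counts per gene, and the authors did not scale them to a common total. The submitters' processing notes name HTSeq, HISAT2 2.1.0 and the mouse build GRCm38.p6; annotation, strand setting and handling of overlaps are not given in the sources used here. Of 55728 rows, 241 outside the annotation were left out (0.302% to 0.535% of a library). Fractional values stood in 9020 rows although the notes name HTSeq, so how the values were made is not certain. Values were rounded to whole counts. GENCODE release M21 (GRCm38) gave symbols and positions for 55227 of 55487 identifiers, and exon length is the union of all exons of a gene.

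The test was edgeR's (4.0.16, R 4.3.3): TMM factors, filterByExpr, quasi-likelihood F test, two-sided, with Benjamini-Hochberg adjustment over 13230 genes. SE is the log2 fold change divided by the square root of F. On data simulated for this comparison over 13230 genes, the share of changed genes recovered was 47.6% at a log2 change of 1 and 86.4% at 2, with 9.42% of calls false. Each of 5 draws changed 200 genes, while 984 were called in the data. Genes were drawn independently, without the exon-length pattern or the chromosome shifts of the data, so these shares may not hold there. The members, lists, promoter motif and comparisons were chosen with earlier results of these data known. Named were all members, Aspscr1, and from each other list the called genes (at most 6) or else the 2 with the smallest p (1 of these is not reported here); Eif2ak2 and Exosc6 were added after their values were seen. Other settings tried were DESeq2 1.42.0, limma-voom (limma 3.58.1), RLE or upper-quartile factors, library size alone, testing all genes, a 5 CPM minimum in 2 libraries, a robust prior, a replicate block, an offset for exon length, and leaving out each library. A crossed block was added after the data were seen. Figures used matplotlib 3.10.9.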

Additional observations from a re-analysis of the deposited data

How the results depend on the processing

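The share of all genes called higher, 5.06% with the main settings, is given beside the members' counts. The 8 members called higher were all called again under RLE factors, the 5 CPM filter, limma-voom and the robust prior (4.97% to 5.25%). Upper-quartile factors lost Wars (4.38%; 1 synthetase higher), and library size alone (3.48%) lost Sesn2 (adjusted p = 0.0639, 1 stress effector higher) and Gpt2 (0 other enzymes higher) and gave Eif2ak1 a log2 fold change of -0.03 against 0.06. Without a filter 1827 genes changed against 984, 14 members were higher (5.03%) and 1 lower (Ddit4, a stress effector; 683 of 22729 genes fell), with 4 stress factors, 2 enzymes and 3 transporters higher, and, on the other lists, 3 eIF2 regulators, 2 unfolded protein response genes, 1 cytosolic and 1 mitochondrial synthetase higher and 2 enzymes lower. DESeq2 called 12 members higher (6.13%), with 4 stress factors and 3 transporters, 3 eIF2 regulators, 2 unfolded protein response genes and 1 synthetase of each kind higher, and 1 other enzyme lower. The offset for exon length gave 1550 genes changed, 13 members higher (7.55%) and 1 lower (4.16%; Ddit4), with 4 stress factors and 3 transporters, 2 eIF2 regulators and 2 unfolded protein response genes higher and 1 other enzyme lower.

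Same-numbered libraries did not vary together (correlation of deviations -0.373 over 13230 genes, which are not independent replicates). With 2 libraries a group this value cannot show whether the numbers pair libraries, and the labels state no block. With the replicate block 932 genes changed and 6 members were higher (4.84%): Slc7a5, Aars and Wars were lost (adjusted p = 0.0648, 0.126 and 0.132; 0 synthetases higher), Slc7a1 was gained (0.0385), 2 eIF2 regulators were higher, and Gpt2 was lost (0 other enzymes higher). A crossed replicate block, added after the data were seen, gave 3137 genes changed, 23 members higher (13.4%) and 2 lower (10.3%): 4 stress factors, 4 effectors, 6 enzymes, 4 transporters and 5 synthetases higher, 1 effector and 1 transporter lower, and on the other lists 4 eIF2 regulators, 5 unfolded protein response genes, 2 cytosolic and 2 mitochondrial synthetases, 2 enzymes and 4 transporters higher, with 1 unfolded protein response gene, 2 mitochondrial synthetases, 4 enzymes and 3 transporters lower.

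With each library left out in turn, 508 to 2782 genes changed, and 1 to 17 members were higher and 0 to 2 lower. By group, 0 to 4 stress factors, 0 to 4 effectors, 1 to 4 enzymes, 0 to 3 transporters and 0 to 2 synthetases were higher, and 0 to 1 kinases, effectors and transporters lower. On the other lists, 1 to 4 eIF2 regulators, 0 to 3 unfolded protein response genes, 0 to 4 cytosolic and 0 to 2 mitochondrial synthetases, 0 to 1 enzymes and 2 to 5 transporters were higher, and 0 to 1 mitochondrial synthetases, 0 to 3 enzymes and 0 to 1 transporters lower. Log2 fold changes that crossed 0 ran from -0.01 to 0.13 for Eif2ak1, -0.66 to 0.01 for Eif2ak4, -0.05 to 0.27 for Pck2, -0.03 to 0.42 for Phgdh, -0.17 to 0.08 for Psat1, -0.06 to 0.39 for Sars, -0.40 to 0.01 for Slc1a4, -0.18 to 0.12 for Slc38a2 and -0.10 to 0.07 for Xpot; none of these was called with all libraries. The cause of these differences was not tested. A fit without 1 library assumes that the lone library of its group varies like the other group. Depth limits Stc2, Gdf15 and Cbs.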
